A study of Mus musculus with 56 samples.

Results

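The genes described here encode proteins of the extracellular matrix: collagens other than collagen I, laminins, nidogens, thrombospondins, small leucine-rich proteoglycans, microfibril proteins and the lysyl oxidase-like enzymes. They were picked by name, by a rule on the gene symbols of the array's annotation that reads no measured value, and Col1a1, Col1a2, Fbln2, Fbln5, Mfap5, Ltbp2 and Thbs1 were left out by the same rule. The rule found 56 genes on 62 probes, of 6795 named genes and 9596 probes in all. They were divided by textbook role into 15 basement membrane genes, 3 fibrillar collagens (Col2a1, Col5a2 and Col11a2), 10 fibril-associated and other collagens, 10 microfibril and elastic fibre genes, 5 proteoglycans, 11 adhesive and matricellular genes and 2 cross-linking enzymes. Another 4 probes, which name Col5a1, Col6a2 or Postn together with a second gene, were not used here.

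RNA of mouse keratinocytes, the main cells of the epidermis, was hybridised on 56 arrays of 2 colours, each of which set RNA from cells given the cytokine TGF-β1 (transforming growth factor β1, 1 ng/ml) against RNA from their untreated counterparts. Ras keratinocytes were cells from newborn Balb/c mice transduced with a retrovirus that cannot replicate and carries Ha-ras, and primary keratinocytes were Balb/c cells without it. Both were treated for 1, 6, 24 or 48 h. Smad3-/- and Smad3+/+ keratinocytes, labelled C57B1/SVJ, were treated for 48 h as ras and as primary cells. The labels do not say whether the cells of several mice were pooled, and the series text speaks of several arrays for each sample, so the p-values below measure the spread between arrays, which may be technical.

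Every value below is a log2 ratio of treated over untreated cells on 1 array, after the median of the array was set to 0. An absolute level of a gene is not given by such a ratio, and fewer cells of a type cannot be told apart from less RNA per cell. The treated RNA was in the Cy5 channel on 49 arrays: 6, 7, 6 and 4 of ras cells and 6, 7, 6 and 3 of primary cells at 1, 6, 24 and 48 h, and 1 for each Smad3 genotype and cell type. On the other 7 arrays the dyes were reversed, and the values do not settle which way their ratios run. Of the features called at 6 h in ras cells, 93.5% had the opposite sign on the reversed ras 6 h array as deposited, whereas the share was 46.1% at 24 h and 40.4% at 48 h in ras cells, and 58.3% and 62.2% on the 2 reversed arrays of primary cells at 48 h. The correlation with the group's values over these features was -0.788, -0.104 and 0.074 in ras cells at 6, 24 and 48 h. In primary cells at 48 h it was -0.357 and -0.35. The 2 reversed Smad3-/- arrays are described with the Smad3 values. These 7 arrays stayed out of the values below, and where a call of the set is lost or gained when they are added with their sign turned, the value with them is given too. The direction of the other 49 is read as treated over untreated from the order of the channels in the labels, which makes it likely rather than certain.

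TGF-β1 signals through a receptor serine/threonine kinase to the transcription factors SMAD2 and SMAD3, and collagens and other matrix genes are among its best-known targets in many cell types. The basement membrane beneath the epidermis is a thin sheet in which a collagen IV network and a laminin network are bridged by nidogens and the proteoglycan perlecan, and keratinocytes make many of these parts themselves. Fibrillar collagens, microfibrils and small proteoglycans belong mainly to the connective tissue below, and there are mostly the products of fibroblasts.

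Over the whole set, fewer genes were called at 1 and 6 h than at 24 and 48 h. A gene was called where limma's moderated test gave an adjusted p under 0.05 over the 8905 features tested. In ras keratinocytes 0 of 56 genes were called at 1 h (0.0786% of all features were), 2 at 6 h (1.72% of all features), 7 at 24 h (10.5%) and 3 at 48 h (3.56%). In primary keratinocytes 0 were called at 1 h and 0 at 6 h (0.0112% of all features at both times), 1 at 24 h (1.35%) and 6 at 48 h (8.64%). The 7 genes at ras 24 h are 12.5% of the set and the 6 at primary 48 h are 10.7%, beside 10.5% and 8.64% of all features, and a difference between these shares was not tested. At an unadjusted p under 0.05 the counts were 5, 8, 19 and 13 genes at 1, 6, 24 and 48 h in ras cells and 2, 8, 6 and 22 genes in primary cells. The share of all features at this looser threshold is not given here, so these counts alone do not show a response of the set. In ras cells 4 of the 7 genes at 24 h were called up and 3 down (3.92% and 6.63% of all features), and the 3 at 48 h were up (1.97%). The 6 in primary cells at 48 h were up (5.2%), as were the 2 at 6 h in ras cells (1.36%) and the 1 at 24 h in primary cells (0.348%). The median log2 ratio of the 56 genes stayed between -0.01 and 0.19 in the 8 responses, while that of all features stayed between -0.04 and 0.01.

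**Figure D1:**
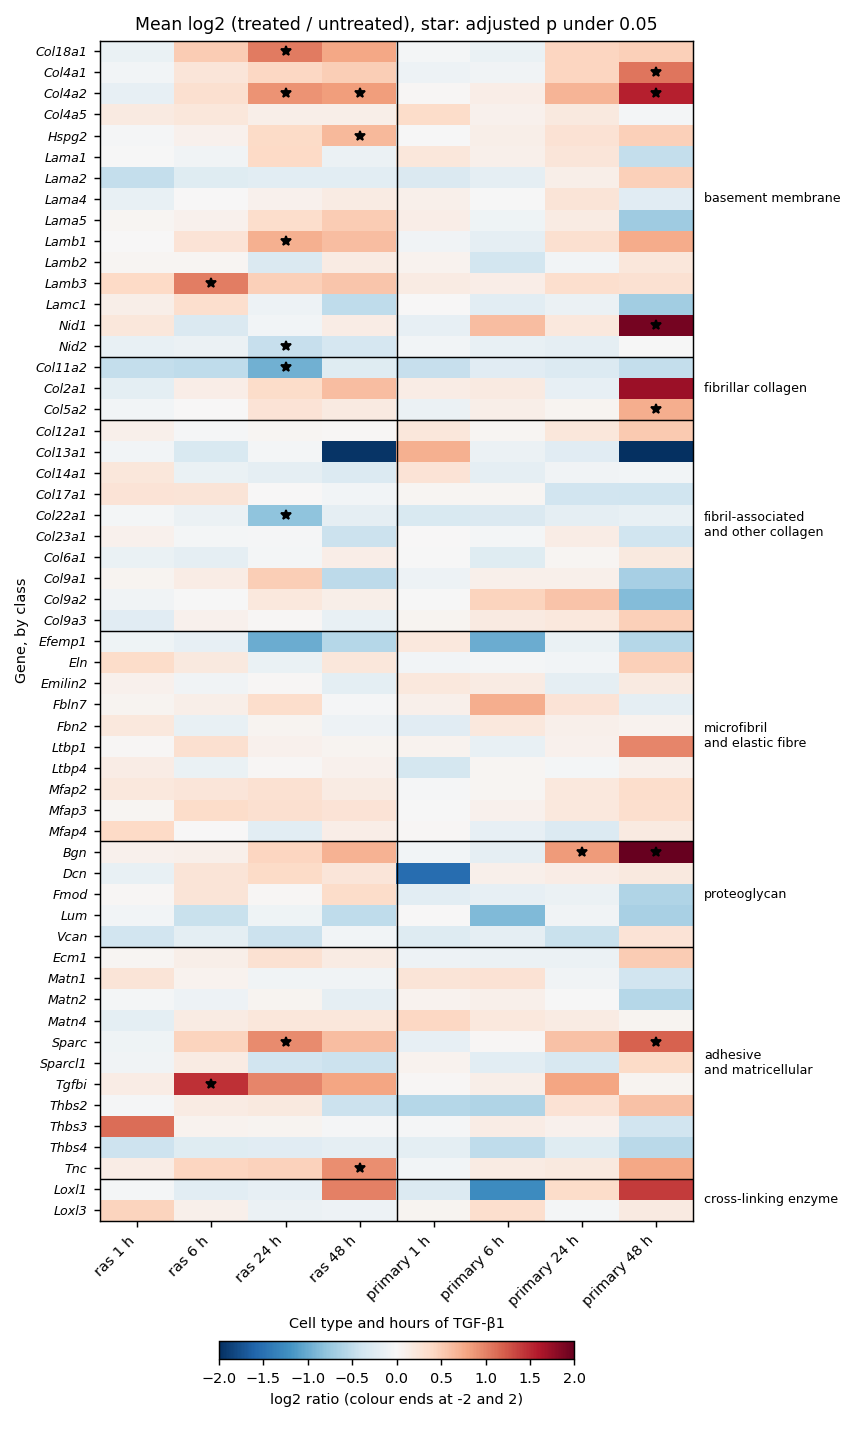
Mean log2 ratio of treated over untreated cells for each of the 56 genes (down the page, by class) in ras and primary keratinocytes at each time (across), with a star where the adjusted p was under 0.05. The stars lie mostly among the basement membrane genes and in the later columns.

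Collagen IV is the sheet-forming collagen of basement membranes. Its α2 chain, Col4a2, was called up in both cell types, as was Sparc, described further on. Col4a2 had log2 ratios of 0.60, 0.66 and 1.57 (lowest, median and highest of 6 arrays) at 24 h in ras cells. All 6 of these arrays lay above 0. At 48 h the ras arrays read 1.25, -0.11, 1.83 and 0.38, and the primary arrays 2.04, 1.99 and 0.64. One of 4 ras arrays lay below 0 at 48 h, and 3 of 3 primary arrays lay above it. Col4a2 rose by 0.90 ± 0.19 at 24 h and 0.84 ± 0.23 at 48 h in ras cells (log2 ± SE, n = 6 and 4, limma adjusted p = 0.00221 and 0.0322), and by 1.56 ± 0.26 at 48 h in primary cells (n = 3, adjusted p = 8.17e-05), a 2.94-fold change. At 24 h in primary cells all 6 arrays lay between 0.42 and 0.95, with an adjusted p of 0.0547. The ras 48 h call was lost without ras array 1 or array 3 (adjusted p up to 0.371) and with the reversed array added and turned (0.59 ± 0.23, adjusted p = 0.23), and the other 2 calls held with each of their arrays left out.

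The partner chain Col4a1, which joins with Col4a2 in the most widespread collagen IV molecule, spread over 0.98, -0.75, 1.59 and 0.12 on the 4 ras arrays at 48 h, with a mean of 0.49 that was not called. At 24 h in ras cells, where Col4a2 was called, Col4a1 read 0.43, -0.01, -0.34, 0.47, 0.49 and 1.46, with no call. On the 3 primary arrays at 48 h its log2 ratios were 1.26, 1.33 and 0.64. These 3 arrays lay above every primary array at 1 and 6 h. It rose by 1.08 ± 0.30 in primary cells (adjusted p = 0.0169), although leaving out array 1 or array 2 took the call away (adjusted p up to 0.198). The third chain on the array, Col4a5, had mean log2 ratios of 0.12 in ras cells and -0.05 in primary cells at 48 h and was called in none of the comparisons.

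Col4a1 and Col4a2 lie head to head in the genome, and their promoter windows are shown because the pair moved together at 48 h in primary cells. The windows, of 250 bases before and 50 after the start site in the RefSeq annotation of GRCm38.p6, are chr8:11312555-11312854 on the plus strand for Col4a2 and chr8:11312777-11313076 on the minus strand for Col4a1. The listed start sites are 21 bases apart, and 78 bases, in capitals below, are held by both windows on opposite strands.
Col4a2: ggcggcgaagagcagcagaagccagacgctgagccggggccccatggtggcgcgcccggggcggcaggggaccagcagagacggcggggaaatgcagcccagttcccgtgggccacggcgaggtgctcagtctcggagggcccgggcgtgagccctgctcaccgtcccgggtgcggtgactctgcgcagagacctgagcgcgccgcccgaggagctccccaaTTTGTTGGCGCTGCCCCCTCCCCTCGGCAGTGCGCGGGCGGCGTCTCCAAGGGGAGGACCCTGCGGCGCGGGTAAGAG
Col4a1: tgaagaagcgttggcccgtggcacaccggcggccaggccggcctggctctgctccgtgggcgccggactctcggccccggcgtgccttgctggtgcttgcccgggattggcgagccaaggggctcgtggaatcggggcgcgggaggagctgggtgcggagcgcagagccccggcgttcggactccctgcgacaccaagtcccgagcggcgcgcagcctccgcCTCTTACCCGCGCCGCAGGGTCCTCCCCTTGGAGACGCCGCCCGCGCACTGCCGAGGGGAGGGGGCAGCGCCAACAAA
The letters CAGAC, a short core that SMAD proteins bind, occur once in the Col4a2 window, on either strand, and 0 times in the Col4a1 window, against 49.6% of all 32851 promoter windows that hold it at least once. GGGCGG, the core of Sp1 sites, occurs 3 times and once. A match of letters is a description and not a site.

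Nidogen 1, the link between the laminin and collagen IV networks, gave the second largest rise of the set. At 48 h Nid1 read 0.51, -1.20, 1.30 and -0.01 in ras cells, with a mean of 0.15, against log2 ratios of 1.93, 2.51 and 1.29 in primary cells. All 3 primary arrays lay above every primary array at 1 and 24 h, while at 6 h 1 primary array read 3.12, higher than all 3, and the other 6 read 0.94 or lower. Its rise in primary cells was 1.91 ± 0.43 (n = 3, adjusted p = 0.00284, 3.75-fold), and it lost the call without array 2 (adjusted p = 0.0904). The 2 reversed arrays of primary cells at 48 h read -2.54 and -1.06 as deposited, and with them turned the rise was 1.86 ± 0.34 over 5 arrays (adjusted p = 0.000109). The related Nid2 instead fell at 24 h in ras cells, by 0.47 ± 0.13 on the log2 scale (adjusted p = 0.0178), with all 6 arrays below 0 (-0.86, -0.42 and -0.09 as lowest, median and highest). Neither of its 2 probes passed alone (adjusted p = 0.259 and 0.118), and the call was also lost without array 1 or array 7. The reversed ras array at 24 h read 0.10 as deposited, and with it turned the value was -0.42 ± 0.14 with no call (adjusted p = 0.0696).

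Among the laminins, the trimers that epithelial cells attach to, 2 of 8 measured chains were called in the time course. Lamb3, the β3 chain of the main laminin that anchors basal keratinocytes, was the one basement membrane gene called at 6 h. At 6 h in ras cells its log2 ratios were 0.45, 0.90 and 1.49 (lowest, median and highest of 7 arrays), and all 7 lay above 0. It rose by 1.02 ± 0.18 (adjusted p = 0.00088, 2.03-fold), kept the call with each array left out, and had means of 0.48 at 24 h and 0.55 at 48 h without a call. In primary cells at 6 h it ran from -0.95 to 0.89 with a median of 0.15. The other chains of that laminin were not analysed here.

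Of the α5β1γ1 laminin, found in most epithelial basement membranes, the β1 chain Lamb1 rose in ras cells at 24 h, by 0.71 ± 0.18 (adjusted p = 0.0126), with 6 of 6 arrays between 0.05 and 1.20. Without array 6 its adjusted p was 0.0501. At 48 h in primary cells its 3 arrays lay at 1.15, 0.57 and 0.53 with no call. Its partners ran the other way there: Lama5 averaged -0.71 ± 0.27 and Lamc1 -0.69 ± 0.28 (SE, adjusted p = 0.0935 and 0.121), both below 0 on 3 of 3 arrays. With the 2 reversed arrays turned, Lamb1 passed at 0.66 ± 0.21 (adjusted p = 0.0422) and Lama5 at -0.77 ± 0.24 (adjusted p = 0.0376), in opposite directions. As deposited these 2 arrays read -0.42 and -0.63 for Lamb1. For Lama5 they read 1.85 and -0.13, so they ran opposite ways. In ras cells Lama5 had positive means of 0.35 at 24 h and 0.52 at 48 h, while Lamc1 had -0.11 and -0.50, none of them called.

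Col18a1, whose protein is a basement membrane collagen and the source of endostatin, had log2 ratios of 0.45, 1.01 and 1.94 (lowest, median and highest of 6 arrays) at 24 h in ras cells. All 6 arrays were above 0, and both of its probes passed alone. It rose by 1.04 ± 0.19 (adjusted p = 0.00104, 2.06-fold) and kept the call with each array left out. In primary cells at 24 h it also lay above 0 on 6 of 6 arrays, between 0.12 and 0.68, with no call. Hspg2, which encodes perlecan, had log2 ratios of 0.71, 0.33, 1.31 and 0.24 in ras cells at 48 h. It rose by 0.65 ± 0.18 there (adjusted p = 0.0394), a call that was lost without array 1 or array 3 (adjusted p up to 0.359) and with the reversed array turned (0.52 ± 0.17, adjusted p = 0.146).

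For the 15 basement membrane genes as a group, 3 were called up and 1 down (Nid2) at 24 h in ras cells, where 3.92% and 6.63% of all features were, and 2 up at 48 h (1.97%). In primary cells 0 were called at 24 h (1.35% of all features were, in either direction) and 3 up at 48 h (5.2%). Their median log2 ratio was 0.35 at 24 h and 0.17 at 48 h in ras cells, and 0.25 and 0.31 in primary cells, beside medians between -0.04 and 0.01 over all features. At 24 h in primary cells 12 of 15 had positive means, against 46.5% of all features. This count was the largest of the ras and primary groups at 24 and 48 h. Col4a5 was among them only through array 6 at 2.12, as its other arrays lay between -0.33 and -0.02. Lama5 was among them through array 5 at 1.46 and array 6 at 0.52, as its other arrays lay between -0.47 and 0.01. At 48 h in primary cells Col4a5, Lama1, Lama4, Lama5, Lamc1 and Nid2 had negative means.

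The 3 fibrillar collagens did not share a direction. Col5a2, a chain of collagen V, which takes part in starting collagen I fibrils, had log2 ratios of 1.02, 0.66 and 0.51 at 48 h in primary cells. All 3 arrays lay above the 19 primary arrays at earlier times. It rose by 0.73 ± 0.18 (adjusted p = 0.00672, 1.66-fold). Its 2 probes gave 0.42 and 1.03, neither passing alone (adjusted p = 0.0975 and 0.0686), and the call was lost without array 1 (adjusted p = 0.132) and with the reversed arrays turned (adjusted p = 0.0899). Col2a1, the cartilage collagen, had the largest mean of the class, 1.71 ± 0.63 at 48 h in primary cells (2.84, 1.76 and 0.54 on the 3 arrays, adjusted p = 0.0871), and passed with the reversed arrays turned (1.44 ± 0.46, adjusted p = 0.0446).

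Col11a2, a minor fibrillar chain of cartilage, was called down in ras cells at 24 h, by 0.97 ± 0.27 on the log2 scale (adjusted p = 0.021). That mean rests on 1 array at -4.04, as the other 5 lay between -0.73 and 0.11, and the call was lost without it (-0.35, adjusted p = 0.315). With the reversed array turned the call was lost as well (-0.77 ± 0.31, adjusted p = 0.131). Col11a2 was below 0 on 39 of the 45 Balb/c arrays with treated RNA in Cy5 and also on 7 of 7 reversed arrays as deposited (-1.37 to -0.40).

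Set side by side, 0 of 3 fibrillar and 2 of 15 basement membrane genes were called up at 48 h in ras cells, and 1 of 3 and 3 of 15 in primary cells. A difference between these classes was not tested. Col1a1 and Col1a2, the main fibrillar collagen chains, are outside the set.

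**Figure D2:**
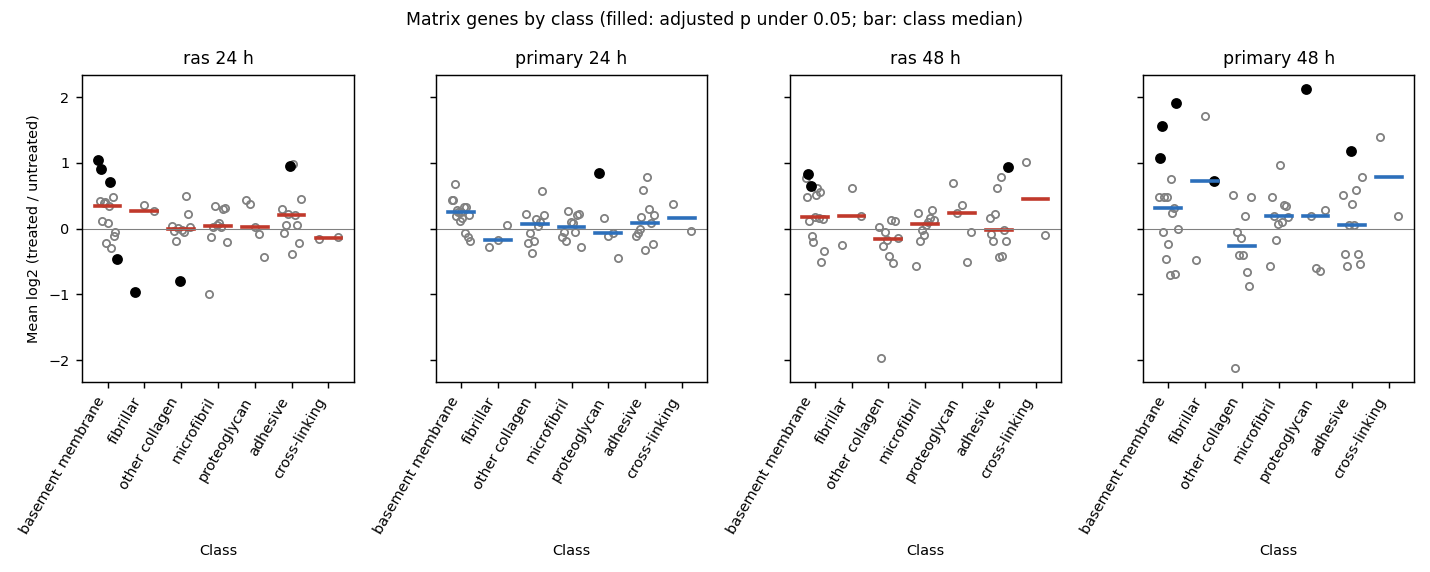
Mean log2 ratio of treated over untreated cells for each gene, by class, in ras and primary cells at 24 and 48 h. Filled points had an adjusted p under 0.05 and bars are class medians; the basement membrane median lies above 0 in all 4 panels, at 0.35, 0.25, 0.17 and 0.31.

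Of the 10 fibril-associated and other collagens 1 was called. Col22a1, a collagen of tissue junctions, fell in ras cells at 24 h by 0.80 ± 0.23 on the log2 scale (adjusted p = 0.0234). Its 6 arrays ran from -1.92 through a median of -0.66 to 0.25, with 2 above 0, and the call was lost without array 1 or array 5 (adjusted p up to 0.187). The largest mean of the class was that of Col13a1, a transmembrane collagen, at -1.96 ± 0.77 in ras and -2.12 ± 0.89 in primary cells at 48 h (SE, adjusted p = 0.141 and 0.136). One array set each mean: -6.82 beside -0.41, -0.71 and 0.10 in ras cells, and -5.65 beside -0.54 and -0.17 in primary cells. With the 2 reversed arrays turned, 3 genes of the class passed in primary cells at 48 h: Col9a3, a chain of the fibril-associated collagen IX, at 0.59 ± 0.18 (adjusted p = 0.0308), its partner chain Col9a2 at -1.43 ± 0.44 (adjusted p = 0.0346) and Col17a1, the hemidesmosome collagen of basal keratinocytes, at -0.91 ± 0.23 (adjusted p = 0.00665). One reversed array moved the Col9a2 and Col17a1 values most: as deposited Col9a2 read 4.73 on it and -0.19 on the other, and Col17a1 read 2.63 and 0.74. Over the 3 arrays with treated RNA in Cy5 the means were -0.87 for Col9a2 and -0.40 for Col17a1 (adjusted p = 0.299 and 0.367). Col6a1, a chain of beaded-filament collagen VI, had means of 0.13 in ras and 0.20 in primary cells at 48 h.

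None of the 10 microfibril and elastic fibre genes was called in any response. Ltbp1, a protein that binds latent TGF-β to microfibrils, read 1.11, -1.38, 1.02 and -0.56 in ras cells at 48 h, with a mean of 0.05. It had the largest mean of the class in primary cells at 48 h, 0.97 ± 0.35 (1.24, 0.98 and 0.70, adjusted p = 0.0729), which passed with the reversed arrays turned (0.86 ± 0.27, adjusted p = 0.0376). Efemp1, which encodes fibulin-3, had the largest mean in ras cells at 24 h, -0.99 ± 0.41 (adjusted p = 0.117), with 5 of 6 arrays below 0. These values stand beside those of Fbln2, Fbln5, Mfap5 and Ltbp2, elastic fibre genes outside the set, all 4 of which were called up at 48 h in primary cells.

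Biglycan gave the largest rise of all 56 genes. Bgn encodes a small leucine-rich proteoglycan that binds collagen and TGF-β. In ras cells its log2 ratios at 48 h were 1.21, 0.07, 1.23 and 0.28, all above 0, with a mean of 0.70 that was not called. In primary cells they were 0.21, 0.50 and 2.36 at 24 h (lowest, median and highest of 6 arrays) and 2.32, 1.96 and 2.11 at 48 h. All 9 lay above 0, and the 3 at 48 h lay close together. The rise in primary cells was 0.85 ± 0.20 at 24 h (adjusted p = 0.0154) and 2.13 ± 0.28 at 48 h (adjusted p = 1.11e-06, 4.38-fold). The 24 h call was lost without array 3 or array 6 (adjusted p up to 0.29). The 48 h call held with each array left out. The 2 reversed arrays of this group, whose sign is not settled, read -1.94 and -0.87 as deposited. With them turned the call held (1.84 ± 0.22 over 5 arrays). With them as deposited, 1 gene of the set was called up and 2 down at 48 h in primary cells, in place of 6 up. Of the 8905 features 492 were then called up and 253 down.

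The other 4 proteoglycans (Dcn, Fmod, Lum and Vcan) were called in none of the 8 responses. Their 48 h means ran from -0.51 to 0.36 in ras cells and from -0.65 to 0.28 in primary cells. The largest of their means, -1.52 for Dcn at 1 h in primary cells, came from 1 array at -7.50 where the other 5 lay between -1.09 and 0.30.

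The promoter of Bgn is shown with those of the first 2 genes called in ras cells, Lamb3 and Tgfbi, for the short cores each holds. Capitals mark CAGAC and GGGCGG on either strand, so that GTCTG and CCGCCC are their other strand. The windows are chrX:73483351-73483650 for Bgn, chr1:193301744-193302043 for Lamb3 (the first of its 2 windows) and chr13:56609336-56609635 for Tgfbi, all on the plus strand of GRCm38.p6 in RefSeq.
Bgn: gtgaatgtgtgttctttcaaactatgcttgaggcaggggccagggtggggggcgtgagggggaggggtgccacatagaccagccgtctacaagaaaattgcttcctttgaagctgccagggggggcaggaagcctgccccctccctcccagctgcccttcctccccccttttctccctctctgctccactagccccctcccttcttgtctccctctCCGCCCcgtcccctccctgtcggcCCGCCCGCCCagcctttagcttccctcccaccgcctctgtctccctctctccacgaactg
Lamb3: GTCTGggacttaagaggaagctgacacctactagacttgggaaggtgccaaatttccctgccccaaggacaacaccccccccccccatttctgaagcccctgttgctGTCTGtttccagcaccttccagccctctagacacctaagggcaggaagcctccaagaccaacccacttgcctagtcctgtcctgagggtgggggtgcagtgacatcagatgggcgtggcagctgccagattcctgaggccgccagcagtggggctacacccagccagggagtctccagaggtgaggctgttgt
Tgfbi: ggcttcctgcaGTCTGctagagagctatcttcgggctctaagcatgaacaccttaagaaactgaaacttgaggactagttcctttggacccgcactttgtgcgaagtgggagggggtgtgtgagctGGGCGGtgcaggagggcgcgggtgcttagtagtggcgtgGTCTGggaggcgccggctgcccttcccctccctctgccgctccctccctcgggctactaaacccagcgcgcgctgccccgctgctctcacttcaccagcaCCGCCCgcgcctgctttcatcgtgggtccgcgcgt
Lamb3 and Tgfbi each hold CAGAC 2 times and Bgn 0 times. GGGCGG occurs 0, 2 and 3 times in Lamb3, Tgfbi and Bgn, the last with 2 copies that overlap each other. TGANTCA, the AP-1 core, and TATAAA were in none of the printed windows, against 7.8% and 13.6% of all windows. Promoter windows were listed for 37 of the 56 genes, 47 windows in all, of which 55.3% hold CAGAC and 61.7% hold GGGCGG, against 49.6% and 35.7% of all windows.

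**Figure D3:**
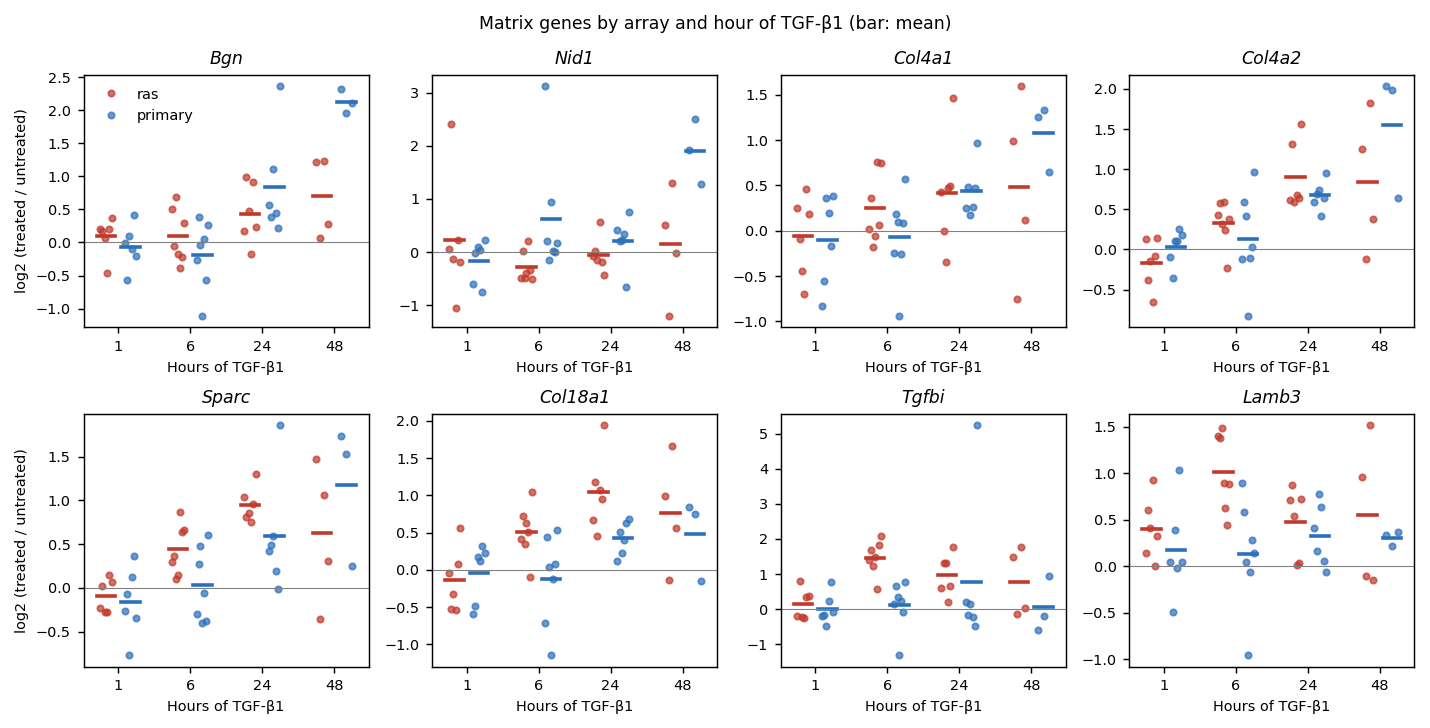
Log2 ratio of treated over untreated cells on each array at 1, 6, 24 and 48 h (ras points left of primary points), with the group mean as a bar, for 8 genes; each panel has its own vertical scale. Lamb3 and Tgfbi have their highest ras mean at 6 h, Sparc, Col18a1 and Col4a2 at 24 h, and Bgn and Nid1 their highest primary mean at 48 h.

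Of the 11 adhesive and matricellular genes, 3 were called. Tgfbi encodes a secreted adhesion protein first found as a TGF-β target. At 6 h in ras cells its log2 ratios were 0.56, 1.47 and 2.10 (lowest, median and highest of 7 arrays). All 7 arrays lay above 0, and 6 of them above the highest primary array at 6 h (0.79). The rise of 1.47 ± 0.36 (adjusted p = 0.0223, 2.77-fold) was the largest of the set in ras cells. It dropped just past the threshold without array 1, 2, 7 or 8 (adjusted p up to 0.0996), while its value stayed between 1.36 and 1.62. All 6 ras arrays at 24 h were above 0 as well, with a mean of 0.98. The spread that the test pools over groups includes 1 primary array at 24 h that read 5.24 where the other 5 lay between -0.48 and 0.21.

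Sparc, or osteonectin, is a matricellular protein that binds collagen and is found in basement membranes. Its log2 ratios in ras cells at 24 h were 0.75, 0.90 and 1.30 (lowest, median and highest of 6 arrays), the narrowest range of any gene called there. It rose by 0.95 ± 0.19 (adjusted p = 0.00171, 1.93-fold) and kept the call with each array left out. In primary cells at 48 h the arrays read 1.74, 1.53 and 0.25. The rise there was 1.17 ± 0.27 (adjusted p = 0.00339) and was lost without array 1 or array 2 (adjusted p up to 0.117). Tnc, the wound-matrix glycoprotein tenascin-C, had log2 ratios of 1.23, 0.21, 1.36 and 0.94 in ras cells at 48 h. It rose by 0.94 ± 0.26 (adjusted p = 0.034), and the call was lost without array 1, 3 or 4 (adjusted p up to 0.208) or with the reversed array turned (0.76 ± 0.24, adjusted p = 0.124). In primary cells at 48 h Tnc averaged 0.78 with 3 of 3 arrays above 0 and no call.

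Neither cross-linking enzyme was called. Loxl1, a lysyl oxidase relative needed for elastin cross-links in mice, read 1.21, -0.05, 1.11 and 1.76 in ras cells at 48 h, with a mean of 1.01. In primary cells at 48 h its mean was 1.39 ± 0.72 (2.45, 1.59 and 0.14, adjusted p = 0.249). One primary array at 6 h read -7.48 while the other 6 lay between -0.97 and 0.26.

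Single arrays of this kind were few but large. Of 2744 values of the 56 genes on 49 arrays, 14 lay beyond 4 in absolute log2 ratio, on 11 genes, while the median absolute value was 0.30. Col13a1 held 4 of them. The other 10 genes, with 1 such value each, were Col11a2, Col2a1, Dcn, Efemp1, Fbln7, Loxl1, Lum, Sparcl1, Tgfbi and Thbs3, the last with the highest mean of the set at 1 h in ras cells through 1 array at 7.39.

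Whole arrays also ran high or low over the set. At 48 h in ras cells the 16 genes called in any comparison had medians of 0.97, -0.13, 1.26 and 0.18 on arrays 1 to 4. Array 2 was the lowest of the 4 for 9 of these 16 genes and array 3 the highest for 11. At 24 h in primary cells array 6 was the highest of 6 for 12 of 16 genes, with a median of 0.78 beside 0.07 to 0.20. At 6 h in primary cells array 4 was the lowest of 7 for 9 of 16, with a median of -0.38. Without ras array 1 or array 3 at 48 h 0 of the 56 genes were called there, and 6 were without array 2, against 3 with all 4 arrays. Of the 8905 features 24 were called up and 31 down without array 1, and 38 and 65 without array 3. Without array 2 it was 174 and 148, and with all 4 arrays 175 and 142.

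**Figure D4:**
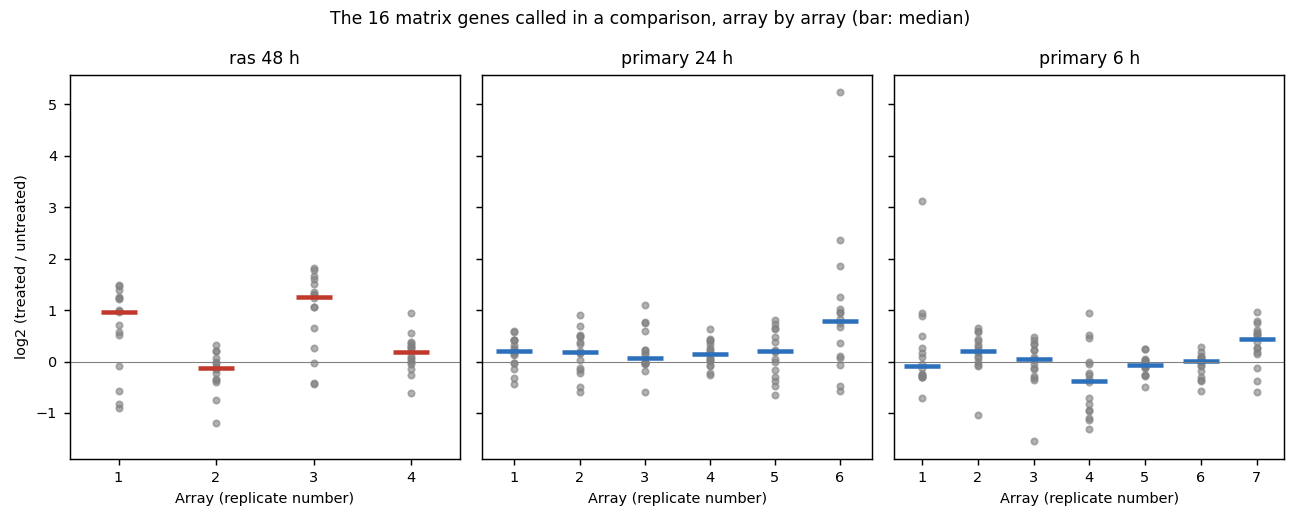
Log2 ratio of treated over untreated cells for the 16 genes called in any comparison, on each array of 3 groups, with the median of the array as a bar. In ras cells at 48 h the medians are 0.97, -0.13, 1.26 and 0.18 on arrays 1 to 4, and in primary cells at 24 h array 6 stands above the other 5.

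The next question was whether the ras and primary responses differed. In the direct test of ras minus primary, 0 of 56 genes were called at 1, 6, 24 or 48 h. Of all features 0%, 0%, 0.0449% and 0.202% were. At an unadjusted p under 0.05 there were 3, 5, 1 and 7 genes, again with no share of all features to set beside them. The differences nearest to a call were those of Bgn at 48 h (mean of 0.70 in ras and 2.13 in primary cells, difference -1.43, 95% interval -2.19 to -0.68, adjusted p = 0.106), Lama5 (0.52 and -0.71, difference 1.23, interval 0.51 to 1.95, adjusted p = 0.166) and Nid1 (0.15 and 1.91, difference -1.76, interval -2.91 to -0.61, adjusted p = 0.246). With the reversed arrays turned and a term for the dye, Bgn and Nid1 passed (-1.26 and -1.94, adjusted p = 0.0361 and 0.0365). At 6 h Lamb3 (1.02 in ras and 0.13 in primary cells, interval of the difference 0.38 to 1.39) and Tgfbi (1.47 and 0.11, interval 0.32 to 2.39) had intervals that do not hold 0 and an adjusted p of 0.996, and both passed with array weights (adjusted p = 0.00316 and 0.0226). For Col4a2 the difference was 0.23 at 24 h (interval -0.30 to 0.76) and -0.72 at 48 h (interval -1.43 to -0.02). For Sparc it was 0.36 at 24 h (interval -0.19 to 0.91) and for Col18a1 0.61 (interval 0.06 to 1.17). A call in 1 cell type and none in the other is therefore not shown to be a difference between the cell types.

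Late and early responses were compared next. In primary cells 3 genes were called in 48 h minus 6 h, where 2.75% of all features were, and all 3 were higher at 48 h (1.85% of all features were). These were Bgn (2.13 at 48 h and -0.18 at 6 h, difference 2.31 ± 0.34, adjusted p = 2.83e-05), Col4a2 (1.56 and 0.13, difference 1.42 ± 0.32, adjusted p = 0.00683) and Sparc (1.17 and 0.03, difference 1.14 ± 0.32, adjusted p = 0.0411). Bgn kept this call with each of 10 arrays left out, Col4a2 lost it without either of 2 primary 48 h arrays, and Sparc lost it without any of 6 arrays (adjusted p up to 0.318). With the reversed arrays turned Bgn alone was called, while Col4a2 had 0.92 ± 0.31 and Sparc 0.93 ± 0.29 (adjusted p = 0.127 and 0.103). In ras cells 0 of 56 genes were called in the same comparison (0.0337% of all features were). At an unadjusted p under 0.05 there were 2, also without a share of all features to set beside them.

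The Smad3-/- and Smad3+/+ cells asked whether the 48 h response needs SMAD3. There was 1 array for each genotype and cell type, so the comparison sets 2 knockout against 2 wild type arrays, and its error comes from the spread of the Balb/c groups. It called 1 of the 56 genes, where 1.73% of all features were called. Lama1, the laminin α1 chain, read -0.88 in knockout primary and -0.89 in knockout ras cells, against -0.63 in wild type primary and 3.57 in wild type ras cells. The knockout value is lower by 2.35 ± 0.47 on the log2 scale (adjusted p = 0.00129) through the wild type ras array alone, since the primary arrays differ by -0.25 (adjusted p = 1). With the 2 reversed knockout arrays turned, Lama1 was no longer called (-1.68 ± 0.47, adjusted p = 0.0821). Emilin2, a microfibril-associated glycoprotein, was then the 1 gene called, at 1.37 ± 0.33 (adjusted p = 0.0247), against 1.30 ± 0.37 without them (adjusted p = 0.0589). As deposited, the 2 reversed arrays correlated at 0.48 (primary) and 0.41 (ras) with the Cy5 knockout array of the same cells. With them added as deposited, 0 genes of the set were called up and 1 down, beside 26 and 68 of the 8905 features. Which sign is right was not settled, so the Emilin2 call holds for the turned sign only.

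Of the 12 genes called up in a Balb/c response, 8 were lower in the knockout on both pairs of arrays and 2 were higher on both. Of all features 28.5% were lower on both pairs and 31.9% higher. The other 2 genes split, and none of the 12 was called. Bgn and Col5a2 count as lower on both through ras differences of only -0.004 and -0.006. All these genes were read on the same arrays, and a difference from the shares of all features was not tested. Col4a1 read -0.48 and 0.39 in knockout primary and ras cells against 1.01 and 1.08 in wild type cells (difference -1.09 ± 0.52, adjusted p = 0.689). Col4a2 read 0.29 and 0.51 against 0.99 and 0.68. Hspg2 read -1.05 and -0.39 against 0.52 and -0.04 (difference -0.95 ± 0.37, adjusted p = 0.374). Both knockout values lay below both wild type values for Col4a1, Col4a2 and Hspg2, and also for Col18a1, Lamb1 and Nid1, whose values follow. The wild type arrays did not repeat every Balb/c rise. Nid1 read -0.01 and 0.10 on them, and Bgn, Sparc, Col5a2 and Hspg2 lay below 0 on the wild type ras array. Both wild type arrays lay above 0 for Col4a1, Col4a2, Col18a1, Lamb1, Lamb3, Tgfbi and Tnc. Without a rise in the wild type, a lower knockout value does not show a need for SMAD3.

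Col18a1 read 0.21 and 0.36 in knockout primary and ras cells against 0.82 and 0.89 in wild type cells, and Lamb1 0.42 and 0.30 against 1.00 and 0.92. Bgn, with 0.35 and -0.49 in knockout and 0.63 and -0.49 in wild type cells, and Sparc, with 0.73 and -0.21 against 0.57 and -0.22, differed by at most 0.27 between the genotypes in a pair. Nid1 read -0.77 and -0.37 against -0.01 and 0.10. Lamb3 was higher in the knockout on both pairs, with 1.16 and 0.55 against 1.13 and 0.21. Tgfbi, with 0.68 and 0.91 in knockout primary and ras cells against 1.10 and 0.74 in wild type cells, and Tnc, with 0.53 and 0.42 against 1.04 and 0.32, split between the pairs. In all, 9 of 15 basement membrane genes were lower in the knockout on both pairs and 4 higher on both, against 28.5% and 31.9% of all features. The 2 reversed knockout arrays, whose sign is not settled, are not in these values; as deposited they read 0.88 and 0.29 for Col4a1.

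**Figure D5:**
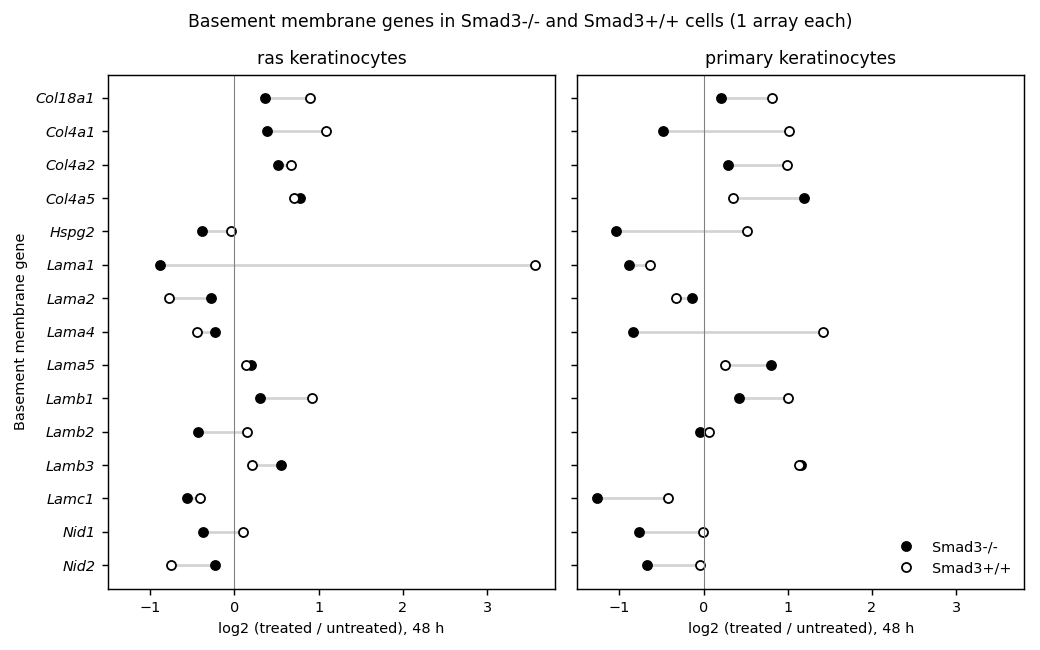
Log2 ratio of treated over untreated cells at 48 h for the 15 basement membrane genes in Smad3-/- cells (filled) and Smad3+/+ cells (open), ras keratinocytes left and primary keratinocytes right, 1 array a point. For 9 of the 15 genes, Col4a1, Col18a1 and Lamb1 among them, the filled point lies left of the open one in both panels. The widest gap is that of Lama1 in ras cells, set by 1 wild type array at 3.57.

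Genes that make, bind and cut the matrix were taken from lists of textbook members. Of 16 measured genes of collagen processing, 3 were called up at 24 h and 1 at 48 h in ras cells, and 1 at 24 h and 9 at 48 h in primary cells, with 0 down in these 4 responses. Of all features 3.92% and 1.97% were called up in ras cells at these times, and 0.348% and 5.2% in primary cells. At 48 h in primary cells the largest were Crtap, a partner of prolyl 3-hydroxylase (2.30 ± 0.39, adjusted p = 7.02e-05), Lox, lysyl oxidase (1.91 ± 0.26, adjusted p = 1.62e-06), and Pcolce, which speeds cleavage of the procollagen C end (1.80 ± 0.22, adjusted p = 3.42e-07). Crtap and Lox also differed between the cell types at 48 h, Crtap by -2.30 and Lox by -1.59 in ras minus primary cells (adjusted p = 0.0334 and 0.0295). Serpinh1, the collagen chaperone HSP47, rose by 0.50 at 24 h and 0.80 at 48 h in ras cells and by 0.56 and 0.96 in primary cells, a call in all 4 (adjusted p up to 0.0216).

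Of 18 matrix receptor genes, 2 were called up at 48 h in ras cells (1.97% of all features were), and 4 were called up and 1 down at 48 h in primary cells (5.2% and 3.44%). Itga5, a fibronectin receptor chain, rose in both (0.89 in ras and 1.55 in primary cells, adjusted p = 0.0418 and 0.000472), and Ddr2, a receptor for fibrillar collagen, fell by 0.89 in ras cells at 24 h and rose by 1.68 in primary cells at 48 h (adjusted p = 0.0056 and 9.2e-05). Of 18 matrix protease and inhibitor genes, 3 rose at 48 h in ras cells and 7 in primary cells (1.97% and 5.2% of all features), led by Mmp9, a gelatinase that cuts collagen IV, at 1.81 and 2.74 (adjusted p = 0.0183 and 0.000387). Of the 7 genes left out of the set, 2 were called up at 48 h in ras cells and 6 in primary cells, beside the same shares of all features.

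Markers of cell types moved at the same time. At 48 h in ras cells 1 of 14 fibroblast markers (Cdh11) was called up and 1 of 14 keratinocyte markers (Krt10) down, where 1.97% of all features were called up and 1.59% down, and the mean of the fibroblast list over the 4 arrays ran from -0.26 to 0.15. At 48 h in primary cells 5 of 14 keratinocyte markers were called down (Cdh3, Krt10, Krt15, Krt16 and Trp63), and 3 of 14 fibroblast or mesenchymal markers were called up (S100a4, Cdh2 and Twist1), where 3.44% of all features were called down and 5.2% up. The mean of the fibroblast list ran from 0.37 to 0.72 over the 3 primary arrays at 48 h, above all primary arrays at earlier times (-0.48 to 0.18), and that of the keratinocyte list from -1.08 to -0.22. The mean of the melanocyte list, with 3 measured genes, ran from 0.28 to 0.69 over the same 3 arrays, and reached 0.47 on a primary array at 24 h. Of 19 immune markers 3 were called up and 2 down at 48 h in primary cells, and 0 of 12 endothelial and 0 of 9 muscle and adipocyte markers were called there. S100a4 and Twist1 also differed between the cell types at 48 h (-2.13 and -1.21 in ras minus primary cells, adjusted p = 0.0124 and 0.0441). These ratios hold no level of a marker, and the part of other cells in the rises of Bgn, Nid1, collagen IV, Sparc and Col5a2 was not tested.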

How the data were processed

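The deposited values are log ratios of 2 colours for 9596 probes on 56 arrays, used here as log2 values; the sources used here name no base, background correction or normalization. RNA was isolated with TRIzol and cleaned on RNeasy columns, per the labels' protocols. From the authors' values, each array's median was set to 0, probes of 1 gene were averaged, and 1 model over all groups was fitted with limma 3.58.1 in R 4.3.3, with Benjamini-Hochberg adjustment over 8905 features and a threshold of 0.05. It used 49 arrays and left out 7 with reversed dyes. Precision is limited by the number of arrays, 3 to 7 a group in the time course and 1 in each Smad3 group. The fit was checked on simulated data. Of the probes, 7486 name 1 gene, 483 several and 1627 none in the platform annotation. Each called gene of the set is named, with its uncalled partners in 1 protein and the largest uncalled value of its class; genes outside the set come from fixed lists, up to 4 a list and comparison, except that all 5 keratinocyte markers called down at primary 48 h are named, after their values were seen. The rule on symbols reads no value, but the set, its rule and the lists were settled with earlier results of these data known. Alternatives were the sign of the reversed arrays, centring, scaling, array weights, blocks, single probes and arrays left out.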

Additional observations from a re-analysis of the deposited data

Results flagged for a closer look

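Over the 16 genes called in any comparison, 112 groups of 4 to 7 arrays were searched for 1 array far from the rest, and 13 were found; chance gives about 1 in 20. All values are log2 ratios of treated over untreated cells.

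Array 6 of primary cells at 24 h stood above the other 5 for Tgfbi (5.239, others up to 0.215), Sparc (1.859, others up to 0.596) and Tnc (1.248, others up to 0.216). In the same group array 2 was high for Lama1 (0.91, others up to 0.321). At 6 h in primary cells Nid1 was high on array 1 (3.122, others up to 0.942) and Tgfbi low on array 4 (-1.307, others from -0.083). At 1 h in primary cells Col5a2 was low on array 5 (-0.831, others from -0.168) and Nid2 high on array 3 (0.763, others up to 0.016).

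In ras cells Col11a2 was low on array 1 at 24 h (-4.038, others from -0.734) and on array 1 at 48 h (-0.899, others from -0.057). At 1 h Nid1 was high on array 2 (2.399, others up to 0.219), Col5a2 high on array 1 (0.37, others up to -0.032) and Bgn low on array 4 (-0.461, others from 0.064). The cause was not tested for any of the 13.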

How the results depend on the processing

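No call of the set turned its direction under any alternative. Of the 23 calls, 23 stayed past the threshold without centring, 22 with the arrays' ID blocks as a random term, 19 without the 2 widest arrays, 18 with weights for the arrays, 14 after scaling all arrays to 1 spread, 14 with the reversed arrays turned, 11 with them turned and a dye term, 9 with them as deposited and 3 when each group was fitted alone, where fewer arrays set the spread. For the other losses the cause was not tested.

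The number of genes called at primary 24 h (1) was 0 with reversed arrays as deposited, 4 with scaling, 5 with weights, 2 without the widest arrays and 0 alone. Turned with a dye term it was 1 again, but Col17a1 down in place of Bgn up. Calls over all 8905 features changed as well: 31 up and 89 down in the main fit, 1 and 20 as deposited, 107 and 283 with scaling. They were 202 and 628 with weights, 42 and 134 without the widest arrays, 2 and 9 alone, and 18 and 308 turned with a dye term. At primary 48 h (6) it was 3 as deposited (1 up, 2 down), 12 turned, 12 turned with a dye term and 0 alone. All features gave 463 up and 306 down in the main fit, 492 and 253 as deposited and 285 and 315 turned. With a dye term they gave 307 and 399, and alone 0 and 0. At ras 6 h (2) it was 0 as deposited, 1 turned with a dye term and 9 with weights. All features gave 121 up and 32 down in the main fit and 0 and 0 as deposited. Turned with a dye term they gave 37 and 67, and with weights 798 and 397. At ras 24 h (7, of which 3 down) it was 5 turned (1 down), 8 with weights (1 down), 1 turned with a dye term, 3 scaled, 4 without the widest arrays and 0 alone. All features gave 349 up and 590 down in the main fit, 126 and 285 turned and 292 and 268 with weights. With a dye term they gave 31 and 121, scaled 90 and 212, without the widest arrays 133 and 177, and alone 0 and 3. At ras 48 h (3) it was 0 as deposited, turned, turned with a dye term, with weights and alone, 1 scaled and 5 without the widest arrays. All features gave 175 up and 142 down in the main fit, 49 and 65 as deposited and 44 and 26 turned. With a dye term they gave 16 and 25, with weights 174 and 155, and alone 0 and 0. Scaled they gave 100 and 90, and without the widest arrays 271 and 224. For ras minus primary (0) it was 2 at 6 h and 1 at 24 h with weights, and 2 at 48 h turned with a dye term. In these 3 settings 56 features were called up and 8 down, 106 and 30, and 15 and 32. The main fit had 0 and 0, 3 and 1, and 3 and 15. For 48 h minus 6 h in primary cells (3) it was 0 as deposited, 1 turned, 5 turned with a dye term, 1 scaled, 6 with weights and 1 alone. All features gave 165 up and 80 down in the main fit, 2 and 0 as deposited and 95 and 74 turned. With a dye term they gave 147 and 57, scaled 67 and 24, with weights 243 and 144, and alone 52 and 10. For Smad3 (1) it was 5 with weights, 2 with ID blocks, 2 without the widest arrays and 0 alone. Turned it was 1 again, but Emilin2 up in place of Lama1 down. All features gave 39 up and 115 down in the main fit, 105 and 258 with weights and 50 and 144 with ID blocks. Without the widest arrays they gave 60 and 157, alone 0 and 0, and turned 42 and 29.

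With each array left out in turn the counts ran from 0 to 1 at primary 24 h, 3 to 7 at primary 48 h, 1 to 2 at ras 6 h, 4 to 8 at ras 24 h, 0 to 6 at ras 48 h, 1 to 5 for 48 h minus 6 h in primary cells and 1 to 3 for Smad3, and stayed at 0 elsewhere.

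Arrays of ras and primary cells share replicate numbers, but the labels do not say whether the numbers pair them. Over 19 same-numbered pairs the correlation of deviations ran from -0.232 to 0.39 and was over 0.1 in 5. Such correlations cannot settle it, since a shared culture or day need not show in ratios this variable. With the replicate block 0 genes were called in ras minus primary at each time, as without it.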
